A study of Homo sapiens with 4 samples.

Results

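Genes of mitosis and cytokinesis were compared between lung adenocarcinoma (LAD) cells carrying active AKT1 and cells carrying the vector. The set holds 53 genes for mitotic kinases and checkpoint proteins, cyclins, kinetochore proteins, kinesins, condensin and cytokinesis proteins, with 2 transcription factors that regulate them. The genes were chosen by name from textbook roles, and all 53 were found among the 60558 Ensembl identifiers of the gene tables. All had a mean of at least 10 normalized reads in each pair of libraries, so none was lost to the filter on low values. The list was drawn up with earlier results of the same 4 libraries known, so its direction is a description and not a test.

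The study profiled these cells to find long non-coding RNAs that respond to active AKT, and the same gene tables hold the coding genes described here. The established LAD lines A549 and HCC827 were transduced either with myr-AKT1, an AKT1 that a myristoylation signal holds at the membrane and keeps active, or with the empty vector. Each line thus has a vector and a myr-AKT1 group, with 1 strand-specific RNA-seq library per group, and the labels name no other agent, allele or time. Within a line there is therefore no replicate, and a difference between the 2 libraries of a line has no check against the spread between cultures.

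Cells that divide build these transcripts up in G2 and M phase and lose them in G1 and in quiescence. CDK1 with its cyclins starts mitosis, the kinetochore ties chromosomes to microtubules, the checkpoint delays anaphase until all are attached, and the midzone and contractile ring divide the cell. Many of the genes carry a cell cycle homology region (CHR) and CCAAT boxes in their promoters, through which the MuvB complex, with MYBL2 (B-MYB), FOXM1 or the pocket proteins, and NF-Y act on them.

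Depth ranged from 16322183 reads in HCC827-myr-AKT1 to 33530317 in A549-vector. AKT1 itself had 6297 normalized reads in A549-myr-AKT1 against 4243 in its vector control and 4805 against 2175 in the HCC827 pair, so it was higher in the library labelled AKT1 of both pairs. These counts cannot tell the construct from the cell's own transcript. CDKN2A, which A549 is known to lack, had 0 reads in both A549 libraries, a count that allows up to 3 reads, and 2586 and 3452 normalized reads with and without the construct in HCC827. Of the lung markers, NKX2-1 had 9.16 and 0 normalized reads in A549-myr-AKT1 and A549-vector and SFTPB 0 in both, whereas HCC827 held NKX2-1 at 883 and 1584. Other epithelial markers differed within the pairs, but not all in the same direction. In HCC827-myr-AKT1 KRT8 had 13519 normalized reads against 47313 in the vector control, and KRT18 11592 against 39094. KRT19 had 20025 against 33583 there, CDH1 22623 against 18208 and EPCAM 8640 against 10056. In A549 KRT8 had 63920 against 81803 and KRT18 65462.5 against 85339. KRT19 had 2085 against 332 in A549, CDH1 10523 against 4021 and EPCAM 816 against 542. The summed level of the 8 lung and epithelial markers was 142850 against 172079 in A549 and 79293 against 153463 in HCC827. Among 7 markers of leukocytes, endothelium, fibroblasts and red cells, CD3E was at 0 in all 4 libraries and PTPRC reached at most 8.02. Their summed level was 899 in A549-myr-AKT1 against 97.8 in A549-vector and 303 against 126 in the HCC827 pair, mostly COL1A1 at 765 and 76.8 in A549 and 179 and 44.5 in HCC827. The part of these differences in the results was not tested.

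The promoters of 5 members are shown because they span the set. NCAPG and CENPF had the lowest mean log2 fold change over both lines, INCENP and PTTG1 the highest, and TOP2A is the next lowest that holds both motifs and could be shown. Each is the stretch just before the RefSeq transcription start on GRCh38.p14, read 5′ to 3′ along the gene's strand. Stretches of more than 30 bases inside an annotated exon of any gene were not printed, which shortened PTTG1 and passed over HMMR. Capitals mark TTTGAA, the core of the CHR, and CCAAT on either strand, so that TTCAAA and ATTGG are the same motifs read from the other strand.
NCAPG, a condensin subunit, chr4:17810729-17810978, plus strand: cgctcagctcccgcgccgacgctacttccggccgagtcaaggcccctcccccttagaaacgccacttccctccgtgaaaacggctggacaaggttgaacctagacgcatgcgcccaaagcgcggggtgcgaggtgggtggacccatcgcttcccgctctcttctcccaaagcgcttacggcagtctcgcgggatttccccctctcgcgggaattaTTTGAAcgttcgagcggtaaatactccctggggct
CENPF, a kinetochore protein, chr1:214602945-214603194, plus strand: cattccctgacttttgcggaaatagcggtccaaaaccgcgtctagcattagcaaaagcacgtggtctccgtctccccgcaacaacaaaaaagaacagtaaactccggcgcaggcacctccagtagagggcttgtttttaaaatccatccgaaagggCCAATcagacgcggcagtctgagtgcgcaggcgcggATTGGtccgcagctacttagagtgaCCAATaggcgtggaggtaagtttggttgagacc
TOP2A, the topoisomerase that untangles mitotic chromosomes, chr17:40417897-40418146, minus strand: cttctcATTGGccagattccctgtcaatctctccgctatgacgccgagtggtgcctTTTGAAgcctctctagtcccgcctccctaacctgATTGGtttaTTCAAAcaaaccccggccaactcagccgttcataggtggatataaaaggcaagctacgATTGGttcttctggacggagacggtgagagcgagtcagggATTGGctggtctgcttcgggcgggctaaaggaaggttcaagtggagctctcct
INCENP, the scaffold of the chromosomal passenger complex, chr11:62123761-62124010, plus strand: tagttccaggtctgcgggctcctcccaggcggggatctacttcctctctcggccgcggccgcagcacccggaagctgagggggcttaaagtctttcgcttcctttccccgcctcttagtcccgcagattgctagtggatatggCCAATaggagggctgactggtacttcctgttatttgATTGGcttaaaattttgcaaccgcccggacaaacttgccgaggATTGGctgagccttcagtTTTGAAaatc
PTTG1, the securin that holds separase inactive, chr5:160421712-160421854, plus strand: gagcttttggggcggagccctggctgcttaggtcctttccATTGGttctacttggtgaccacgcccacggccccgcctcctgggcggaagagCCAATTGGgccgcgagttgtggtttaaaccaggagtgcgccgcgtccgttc

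Counting the base before the start as -1, NCAPG held TTTGAA at -35 and no CCAAT, and INCENP held TTTGAA at -10 with 3 CCAAT. The TTTGAA of CENPF lies past the start, at position 41, beyond the stretch shown. TOP2A held 2 TTTGAA and 4 CCAAT, and PTTG1 no TTTGAA and 3 CCAAT, of which a pair overlaps in CCAATTGG and was counted as 2. Across the 45 members with a window of 250 bases before to 50 bases after the start, 32 (71.1%) held TTTGAA on either strand, against 18.2% of all 27305 genes with such a window. At least 2 CCAAT stood in 21 members (46.7%), against 12.9% of all genes, and both features in 15 members (33.3%), against 2.20%. Members with and without TTTGAA had similar medians in A549, with log2 fold changes of -2.88 over 32 genes and -2.92 over 13, while in HCC827 the medians were -1.59 and -1.27. The split by CCAAT went the other way in HCC827. There the 21 members with at least 2 CCAAT had a median of -1.31 and the 24 with fewer -1.59, and in A549 -2.88 and -2.89. A match to these letters is not a bound site.

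In A549 the set was lower with myr-AKT1 almost throughout. The median log2 fold change of the 53 genes, myr-AKT1 over vector on the deposited normalized counts, was -2.92, a 7.55-fold lower level, against -0.04 for all 18688 genes kept in that pair. Log2 fold changes below -1 were found for 52 members, against 9.86% of genes, and below -2 for 49 members, against 2.78% of genes. No member was above 1, where 14.8% of genes lay. In HCC827 the median was -1.45, a 2.74-fold lower level, against -0.04 for 17306 genes. There 46 members lay below -1 against 12.4% of genes, 13 below -2 against 3% of genes, and 0 above 1 against 14% of genes. Both lines together put 45 members below -1, against 4.07% of the 15668 genes kept in both. For each of the 53 genes in each line the 95% exact counting interval of the log2 fold change lay below 0. The share over all genes was not computed. Of the 127 genes in the other lists described below, 116 had intervals below 0 in A549 and 106 in HCC827, and 5 and 11 above 0. Such intervals cover counting error only, since amplified reads are not independent molecules.

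As a share of all reads, the set took 0.882% of A549-vector and 0.156% of A549-myr-AKT1, and 0.980% of HCC827-vector and 0.340% of HCC827-myr-AKT1. The 2 vector libraries were thus close, and the library with the smallest share was A549-myr-AKT1. On a per-length scale, in RPKM, the reads of a gene scaled by its merged exon length and by the library's total, the median member stood at 23.6 in A549-vector, 3.29 in A549-myr-AKT1, 28.9 in HCC827-vector and 8.37 in HCC827-myr-AKT1. TOP2A led both vector libraries, at 174 RPKM in A549 and 219 in HCC827. With myr-AKT1 the lead passed to ECT2 in A549, at 35.4 RPKM, and to TPX2 in HCC827, at 61.0. The order of the members by RPKM otherwise stayed close to that of the own vector library, with a Spearman's rho of 0.95 in A549 and 0.90 in HCC827 across the 53 genes, which share libraries and so are no replicates. In bulk RNA, fewer dividing cells and less transcript in each cell cannot be told apart.

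With the 2 lines as the only replication, limma with cell line as a block called 39 of the 53 members lower at an adjusted p under 0.05, against 1.73% of the 19314 genes tested. This fit has 1 residual degree of freedom. The call depends on the setting, and so does the number of all genes called lower. On recovered reads edgeR's quasi-likelihood test called 25 members and 228 genes lower, and DESeq2 49 members and 518 genes. With all genes of at least 1 read, limma called 53 members and 894 genes lower, out of 33056 genes tested. With a pseudocount of 0.1 limma called 0 members and 0 genes lower, although 52 members had an unadjusted p under 0.05 there. Over the members the adjusted p of limma ran from 0.0059 to 0.201. The 14 not called were AURKA, AURKB, BUB1, CCNB2, CDC25C, PTTG1, CENPA, CENPI, CENPM, SPC24, SPC25, KIF2C, PRC1 and INCENP.

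Among the 7 kinases and checkpoint proteins the median log2 fold change was -2.99 in A549 and -1.18 in HCC827. PLK1, the kinase that drives mitotic entry, spindle assembly and cytokinesis, had 379 normalized reads in A549-myr-AKT1 and 3016 in A549-vector, and 634 and 1442 in the HCC827 pair. AURKA, the centrosomal kinase that activates PLK1, had 1151 and 5405 in A549 and 2254 and 3903 in HCC827, as log2 fold changes -2.23 and -0.79. AURKB, the kinase of the passenger complex, had 174 and 1474 in A549 and 820 and 1730 in HCC827. All 3 were thus lower in A549 by more than in HCC827. The checkpoint genes spread further in HCC827: the kinase TTK (MPS1) stood at -2.11, MAD2L1, which binds and restrains CDC20, at -1.62, BUB1B at -1.56 and the kinase BUB1 at -0.80, while in A549 they lay between -2.44 for MAD2L1 and -3.36 for TTK. BUB1 and AURKA were the members of this group that did not reach a log2 fold change of -1 in HCC827.

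The 9 genes of cyclins and the anaphase machinery had medians of -2.98 in A549 and -1.27 in HCC827. CCNB1, the cyclin that activates CDK1 at mitotic entry, had 850 normalized reads in A549-myr-AKT1 against 5736 in A549-vector, and 2309 against 5581 in HCC827. CDK1 had 893 against 4996 in A549 and 1083 against 2452 in HCC827. CDC20, which activates the anaphase-promoting complex (APC/C) and is the target of the checkpoint, had 270 against 2312 in A549 and 1747 against 4408 in HCC827. For these 3 genes the level with myr-AKT1 was lower in A549 than in HCC827, although each pair was scaled on its own and levels across the lines are approximate. UBE2C, the ubiquitin-conjugating enzyme of the APC/C, had log2 fold changes of -3.44 and -1.49, CCNA2 -2.98 and -1.52, CCNB2 -3.04 and -0.98, CDC25C, the phosphatase that activates CDK1, -2.86 and -1.13, and ESPL1, the separase that cleaves cohesin, -3.11 and -1.32 in A549 and HCC827.

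PTTG1 stood apart from its partner ESPL1. It had 530 normalized reads in A549-myr-AKT1 and 3108 in A549-vector, so that its log2 ratio was -2.55 (-2.69 to -2.41 by counting error). In HCC827 it had 1867 and 2081, a log2 fold change of -0.16 (-0.25 to -0.06), the smallest change of any member in either line. The difference between the lines, A549 minus HCC827, was -2.40 (-2.56 to -2.23), larger in size than that of any other member. Its adjusted p in limma was 0.201.

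The 11 centromere and kinetochore genes had medians of -3.0 in A549 and -1.79 in HCC827. The NDC80 complex, the kinetochore's main microtubule coupler, was measured by all of its subunits. NDC80 had 63.0 normalized reads in A549-myr-AKT1 and 691 in A549-vector, and 219 and 789 in HCC827. NUF2 had 159 and 1588 in A549 and 281 and 1249 in HCC827. SPC24 and SPC25 had log2 fold changes of -3.55 and -3.35 in A549 and of -1.31 and -1.46 in HCC827. In A549 the 4 subunits thus lay within -3.32 to -3.55, whereas in HCC827 NUF2 at -2.15 and NDC80 at -1.85 were lower than their partners. SPC25 rested on 37 reads in A549-myr-AKT1, the fewest of any member in any library.

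CENPF and CENPE were among the few members whose change was close to equal in both lines. CENPF, a large protein of the outer kinetochore, had 2124 normalized reads in A549-myr-AKT1 and 20010 in A549-vector, and 1840 and 13948 in HCC827, log2 fold changes of -3.24 and -2.92. CENPE, the kinetochore kinesin that brings chromosomes to the spindle equator, had 647 and 4629 in A549 and 520 and 3506 in HCC827. Its log2 fold changes of -2.84 and -2.75 differed by -0.09 with an interval of -0.28 to 0.11, so CENPE was the only member whose difference between lines lay within counting error. CENPA, the histone H3 variant that marks the centromere, was the opposite case, with 111 against 820 in A549 and 394 against 608 in HCC827 and log2 fold changes of -2.88 and -0.63. KNL1, the scaffold that recruits the checkpoint kinases, had -3.0 and -2.25, and the inner kinetochore proteins CENPK, CENPM and CENPI had -2.66, -2.70 and -2.50 in A549 and -1.79, -1.60 and -1.17 in HCC827.

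The 12 kinesins and spindle genes had medians of -2.87 in A549 and -1.56 in HCC827. HMMR, a spindle-pole protein that works with TPX2, had 373 normalized reads in A549-myr-AKT1 and 3432 in A549-vector, and 448 and 3370 in HCC827, log2 fold changes of -3.20 and -2.91. KIF11 (Eg5), the motor that pushes the spindle poles apart, had 970 and 7082 in A549 and 778 and 2580 in HCC827. TPX2, which activates AURKA on microtubules, had 1468 and 9023 in A549 and 4520 and 10354 in HCC827. HMMR was thus almost as low in HCC827 as in A549, while TPX2, at -2.62 and -1.20, was not. The midzone proteins KIF4A, KIF20A, KIF23 and PRC1 lay between -2.29 and -3.01 in A549 and between -1.10 and -1.39 in HCC827. KIF14, KIF15 and DLGAP5 lay between -2.66 and -2.99 in A549 and between -1.77 and -2.12 in HCC827. KIF2C (MCAK), the motor that depolymerizes misattached microtubules, had -2.92 in A549 and -0.96 in HCC827, just outside the threshold of -1.

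KIF18A, the motor that damps chromosome oscillation at the metaphase plate, went against that order. It had 1072 normalized reads in A549-myr-AKT1 and 3125 in A549-vector, and 327 and 1726 in HCC827. Its log2 fold changes were -1.54 and -2.40, a difference of 0.86 (0.64 to 1.07), so that it was lower by more in HCC827.

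Of the 5 passenger complex and cytokinesis genes, BIRC5 (survivin) had 528 normalized reads in A549-myr-AKT1 and 4145 in A549-vector, and 600 and 1429 in HCC827. INCENP had 732 and 3703 in A549 and 2105 and 3379 in HCC827, as log2 fold changes -2.34 and -0.68. CDCA8 (borealin) had log2 fold changes of -2.68 and -1.36, so that in both lines the scaffold INCENP was the least changed part of the passenger complex. ANLN, which crosslinks the contractile ring, had -2.81 and -2.07. ECT2, the exchange factor that switches on RHOA at the midzone, had 5623 against 20504 in A549 and 2345 against 7219 in HCC827, and its log2 fold changes of -1.87 and -1.62 differed by -0.24 (-0.33 to -0.16).

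In A549 the group of condensin and chromosome genes had the widest range of the 7 groups, from -3.82 to -0.95. NCAPG had 184 normalized reads in A549-myr-AKT1 and 2604 in A549-vector, and 405 and 3236 in HCC827, a 14.1-fold and a 7.99-fold lower level, the lowest log2 fold change of any member in both lines. NCAPH, the kleisin that closes the ring, had 125 and 1726 in A549 and 652 and 1922 in HCC827, log2 fold changes of -3.79 and -1.56. NCAPD2 had -1.88 and -1.17. In A549 the non-SMC subunits NCAPG and NCAPH were thus lower by far more than NCAPD2.

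The ATPase core of condensin was lower by more in HCC827. SMC4 had 6646 normalized reads in A549-myr-AKT1 and 12859 in A549-vector, and 1886 and 9526 in HCC827. Its log2 fold change in A549, -0.95 (-0.996 to -0.908), was the only one of the set above -1 in that line, while in HCC827 it was -2.34 (-2.42 to -2.26), and the difference between the lines was 1.38 (1.29 to 1.47). SMC2 had 1707 and 6835 in A549 and 768 and 4212 in HCC827, log2 fold changes of -2.001 and -2.46 and a difference of 0.46 (0.31 to 0.60). SMC4, SMC2 and KIF18A were the 3 members with the larger change in HCC827 under the deposited scaling and under each of 3 other scalings. TOP2A had 4033 and 32492 in A549 and 7527 and 30257 in HCC827, and MKI67, which coats mitotic chromosomes and is the Ki-67 antigen, had 2452 and 19983 in A549 and 4214 and 11543 in HCC827. The log2 fold changes of TOP2A were -3.01 and -2.01 and those of MKI67 -3.03 and -1.45.

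FOXM1 and MYBL2, the factors that act with MuvB on G2 and M phase genes, were themselves lower. FOXM1 had 395 normalized reads in A549-myr-AKT1 and 3084 in A549-vector, and 1708 and 3924 in HCC827. MYBL2 had 366 and 2835 in A549 and 1455 and 3737 in HCC827. Their log2 fold changes, -2.96 and -2.95 in A549 and -1.20 and -1.36 in HCC827, lay near the medians of the set, and both were called by limma, with adjusted p of 0.040 and 0.030.

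Between the lines, 50 members were lower by more in A549, 49 of them beyond counting error, and the median difference in log2 fold change was -1.44. The share over all genes was not computed. Of the 127 genes in the other lists, 96 had the lower log2 fold change in A549, 81 beyond counting error. The other 31 had it in HCC827, 21 beyond counting error. The 2 lines did not rank the members alike. Across the 53 genes the log2 fold changes in A549 and HCC827 had a Spearman's rho of 0.19 and a Pearson's r of 0.07. Across 15668 genes these were 0.42 and 0.43. All members lay below 0 in both lines, whereas the genes at large lay on both sides of 0, so these coefficients are not like for like. Points of a line share its libraries and sizes of sampling error. The 7 members that did not reach -1 in HCC827 (AURKA, BUB1, CCNB2, CENPA, INCENP, KIF2C and PTTG1) lay between -2.23 and -3.04 in A549. The 4 that did not reach -2 in A549 (SMC4, KIF18A, ECT2 and NCAPD2) lay between -1.17 and -2.40 in HCC827.

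In HCC827 the size of the change moved with base composition, while in A549 the relation was weak and of opposite sign. Taking GC content from the canonical transcript of each gene, which ran from 32.8% to 60.0% over the members, the log2 fold change in HCC827 had a Spearman's rho of 0.65 with GC across the 53 members, against 0.24 across 15608 genes. In A549 the rho was -0.17 for the members and 0.07 for all genes. The 26 members of lower GC had medians of -1.96 in HCC827 and -2.85 in A549, and the 27 of higher GC -1.20 and -2.95. CENPE, HMMR, KIF18A, SMC2 and SMC4 had 35.1%, 36.2%, 36.0%, 37.4% and 36.6% GC, while FOXM1, AURKB and INCENP stood at 55.7%, 55.7% and 58.8%. Some members went against this order in HCC827, such as CDK1, at 35.4% GC with -1.18, and CENPM, at 59.7% with -1.60. The median of all genes of like GC (20 bins) was then subtracted, a step added after the data were seen. After it, 45 members still lay below -1 in HCC827, with a median of -1.42 and a rho with GC of 0.30. In A549 52 members did so, with a median of -2.90 and a rho of -0.22. What part base composition had in the order of the members was not otherwise tested. Transcript length moved with it, with a rho of -0.44 against the log2 fold change in HCC827 and 0.12 in A549.

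The other 127 genes, in 6 lists that also hold broader regulators such as NF-Y, were lower by less, with medians of -1.10 in A549 and -0.95 in HCC827. Of them 70 and 56 lay below -1, none was above 1 in either line, and limma called 41 lower and 0 higher. The pooled medians mix unlike lists: the other spindle and cytokinesis genes had -2.29 and -1.27, the MuvB and DREAM subunits -0.63 and -0.18. Of the 38 other spindle and cytokinesis genes, 30 lay below -1 in A549 and 24 in HCC827. Among them KIF20B had log2 fold changes of -2.42 and -3.06 and ASPM, a spindle-pole protein, -1.56 and -3.04, both lower by more in HCC827, while KIF18B had -3.71 and -1.43. The septin SEPTIN2, with 18708 and 18669 normalized reads in A549 and 11814 and 14186 in HCC827, and the GTPase RHOA, with 8752 and 9468 in A549 and 6241 and 6018 in HCC827, were near their vector levels. Both serve the cytoskeleton outside mitosis as well.

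The other centromere and kinetochore genes had 22 of 32 below -1 in A549 and 19 in HCC827. SGO1 and SGO2, the shugoshins that guard centromeric cohesion, had log2 fold changes of -3.35 and -2.26 in A549 and -1.92 and -2.46 in HCC827. SKA1, which helps NDC80 to track microtubules, had -3.67 and -1.52. MIS12, of the complex that bears NDC80, had -0.34 and -0.18, and CENPB, which binds alphoid DNA, -0.26 and -0.61. The 3 genes of the second condensin complex, of which 3 lay below -1 in A549 and 2 in HCC827, had medians of -1.64 and -1.30, led by NCAPG2 at -2.48 and -1.31.

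APC/C and cohesin genes, whose products are used beyond mitosis, had medians of -0.56 and -0.51, with 6 of 26 below -1 in each line. The inhibitor FBXO5 (EMI1) at -2.49 and -1.69, CDCA5 (sororin), which stabilizes cohesin, at -3.19 and -1.77, and SMC3 at -1.49 and -2.15 were among its lowest, while the APC/C subunit ANAPC13 had 0.15 and 0.25. Of the entry brakes and phosphatases, 4 of 13 lay below -1 in A549 and 3 in HCC827, led by PKMYT1, the kinase that inhibits CDK1, at -3.44 and -1.71. The MuvB and DREAM subunits had medians of -0.63 and -0.18. LIN9, of the MuvB core, had log2 fold changes of -1.81 and -1.79, with 263 normalized reads against 926 in A549 and 230 against 796 in HCC827. The pocket proteins went different ways: RBL1 (p107) had -2.12 and -1.53, and RBL2 (p130), which joins MuvB in resting cells, had 0.02 in A549 and 0.63 in HCC827, where it rested on 4105 normalized reads against 2653. RBL2 had an adjusted p of 0.573 in limma.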

How the data were processed

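Vector-control and myr-AKT1 cells of A549 and HCC827 gave 1 strand-specific RNA library each. Per the labels rRNA was depleted, whereas the Methods state polyA enrichment. The authors mapped reads with Bowtie2 and counted genes with HTSeq, with hg38 named in the processing notes; whether counting used strand is not given in the sources used here. The Methods name RPKM, but the signal deposited by the authors equals reads per gene over a size factor that is constant within a library and was set within the pair of a line. Whole reads were recovered, within 0.001 of a whole number, for 99.996% to 100% of values with reads. Depth was 16322183 to 33530317 reads.

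Identifiers were named from GENCODE, with 60261 of 60558 matched. Log2 fold changes within a line are ratios of deposited values with no pseudocount, among genes with a mean of at least 10 in the pair. Their 95% intervals are Clopper-Pearson limits on recovered reads. The 95% intervals of a difference between lines are normal approximations from the recovered reads of all 4 libraries. With 1 library per condition no p-value was computed within a line. The fit over both lines was limma 3.58.1 with trend on log2(value + 1), cell line as a block, genes kept by filterByExpr, and Benjamini-Hochberg adjustment over 19314 genes. edgeR 4.0.16 and DESeq2 1.42.0 on recovered reads were alternatives, besides other scalings, pseudocounts, filters and thresholds. edgeR on recovered reads called 25 members and 228 genes lower, and DESeq2 called 49 members and 518 genes lower. RPKM used GENCODE merged exons and recovered totals. Fits were tested on simulated data (R 4.3.3) in which each changed gene had the same fold change in both lines. That setting does not show how the fits behave where the lines differ, as they did for most members. All members are accounted for; of the other lists, the genes named are from the 2 highest and 2 lowest in each line and each list. Members, lists and motifs were chosen with earlier results of these data known. Promoters are from RefSeq on GRCh38.p14, which held 45 of the 53 members.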

Additional observations from a re-analysis of the deposited data

Results flagged for a closer look

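8 genes of the 127 in the other lists moved in opposite directions in the 2 lines, with both counting intervals away from 0. The share of all genes that did so was not computed. With 1 library per condition the difference was not tested over cultures. The interval of RHOA in HCC827, 0.0005 to 0.104, only just cleared 0. As A549 minus HCC827 on the log2 scale, RHOA differed by -0.17, CDC23, an APC/C subunit, by -0.83 and PPP2R2A, a regulatory subunit of the phosphatase PP2A, by -0.78, each lower with myr-AKT1 in A549 and higher in HCC827. So did CDC25B, a phosphatase that activates CDK1, by -0.99, LIN52, of the MuvB core, by -1.29 and DYRK1A, the kinase that phosphorylates LIN52, by -0.50, which are named because of these values. ANAPC16, another APC/C subunit, differed by 0.40 and ARPP19, which inhibits PP2A in mitosis, by 0.65, each higher in A549 and lower in HCC827. No member of the set of 53 moved in opposite directions.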

How the results depend on the processing

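In both lines the counts of members below -1 and the medians kept their direction, and were within 1.5 times (counts) or 1 SD over the members (medians) of the reported value, under TMM, total counts, 4-library size factors and adding 1 to each value. A mean filter of 50 could not change the counts, since every member had a higher mean in both pairs. At a log2 fold change of -2, however, the HCC827 count was 13. The 4-library factors raised the median of all genes in A549 by 0.10. Of 106 single log2 fold changes, 12 moved beyond their counting interval under total counts and 12 under 4-library factors, none in sign. The fit across lines depends most on the setting. Its 39 members became 25 with edgeR, 49 with DESeq2, 53 with a filter of 1 read in any library, and 0 both with a pseudocount of 0.1 and without the block, where 52 and 40 had an unadjusted p under 0.05. Over all genes limma called 335 lower and 250 higher. DESeq2 called 518 and 621, a filter of 1 read 894 and 1101, and a pseudocount of 0.1 and the fit without the block 0 and 0. With 1 residual degree of freedom these calls rest on the spread shared across genes; the cause of their movement was not tested. Members with few reads, such as SPC25, have the widest intervals.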
